A study of Arabidopsis thaliana with 16 samples.

Results

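The genes described here are 10 components of ethylene signalling that act between the receptors and the target genes: EIN2, EIN3, EIL1, CTR1, EBF1, EBF2, XRN4 (also called EIN5), ETP1, ETP2 and RTE1. They were chosen by locus, with earlier results of these data known, and all 10 were found among the 27444 protein-coding genes of the nuclear chromosomes. A region was assigned to a gene if it overlapped the gene or the 1000 bp on either side, and this stretch is called the gene window below. Regions of the chromatin protein ENAP1, mapped by chromatin immunoprecipitation and sequencing (ChIP-seq), lay at 7 of the 10 genes in at least 1 condition and at EBF2, ETP1 and RTE1 in none.

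Ethylene is perceived by receptors in the endoplasmic reticulum membrane. Without the hormone, the receptors keep the Raf-like kinase CTR1 active, and CTR1 phosphorylates the membrane protein EIN2 and so holds it back. With the hormone, a C-terminal piece of EIN2 is released and moves to the nucleus, where the transcription factors EIN3 and EIL1 switch on the response. Both steps are held in check by protein breakdown: the F-box proteins ETP1 and ETP2 mark EIN2, and the F-box proteins EBF1 and EBF2 mark EIN3 and EIL1. XRN4 is an exoribonuclease that limits EBF1 and EBF2 transcripts, and RTE1 is a membrane protein that promotes signalling by the receptor ETR1. ENAP1 is a nuclear protein that binds the EIN2 C-terminal piece, so the genes below encode both its partner and the steps around it.

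Whole Arabidopsis thaliana seedlings were grown in darkness for 3 days at 24 °C and then exposed for 4 hours to hydrocarbon-free air, or to the same air with 10 ppm ethylene. Both treatments were given to Col-0, the reference accession, and to ein2, a mutant of EIN2 that does not respond to ethylene, which makes 4 conditions. Each condition had 2 ChIP samples, precipitated with anti-green fluorescent protein antibody, and 2 inputs without antibody, 16 samples in 8 groups. The labels do not name the ein2 allele, the tagged transgene or its promoter, and untagged plants were not among the ChIP samples, so antibody signal without ENAP1 cannot be told apart from binding. The labels give 1 peak set for both ChIP samples of a condition, so no value below has a replicate spread, no difference was tested, and read depth is unknown. The Col-0 sets held 7852 regions (air) and 5137 (ethylene) and the ein2 sets 3252 (air) and 4696 (ethylene). In the same order, the lowest −log10 q values were 13.4, 10.8, 10.9 and 6.57. A region can therefore be listed in ein2 ethylene at a −log10 q below every value of the other sets. The −log10 q also depends on the depth and background of a set, so it is not a common scale of strength. Fold enrichment is the authors' value, the ChIP signal over local background at the summit. Fold depends on the depth and background of a set, so it is used below to order regions inside 1 set.

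In Col-0 air a region lay at 7 of the 10 genes, where 35.5% of all protein-coding genes had one. In Col-0 ethylene it was 4 of 10, with 26.2% of all genes. In ein2 air it was 3 of 10, with 16.9%, and in ein2 ethylene 5 of 10, with 22.4%. The median gene span was 3027 bp for the 10 genes and 2078 bp for all genes, and longer genes have wider windows. Among the 18628 genes with a span from 1493 to 6808 bp, the range of the 10, the shares with a region were 40.6%, 29.7%, 19.5% and 25.8%. EIN2 and XRN4 had a region in all 4 sets, a pattern held by 12.8% of all genes. ETP2 was listed in Col-0 air, Col-0 ethylene and ein2 air (2.07% of genes), and EIN3 in Col-0 air and both ethylene sets (3.3%). EIL1 and EBF1 shared the combination of Col-0 air with ein2 ethylene (3.05%), and CTR1 was listed in Col-0 air alone (6.98%). No region in any set was the most common pattern among all genes, at 60.3%.

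**Figure D1:**
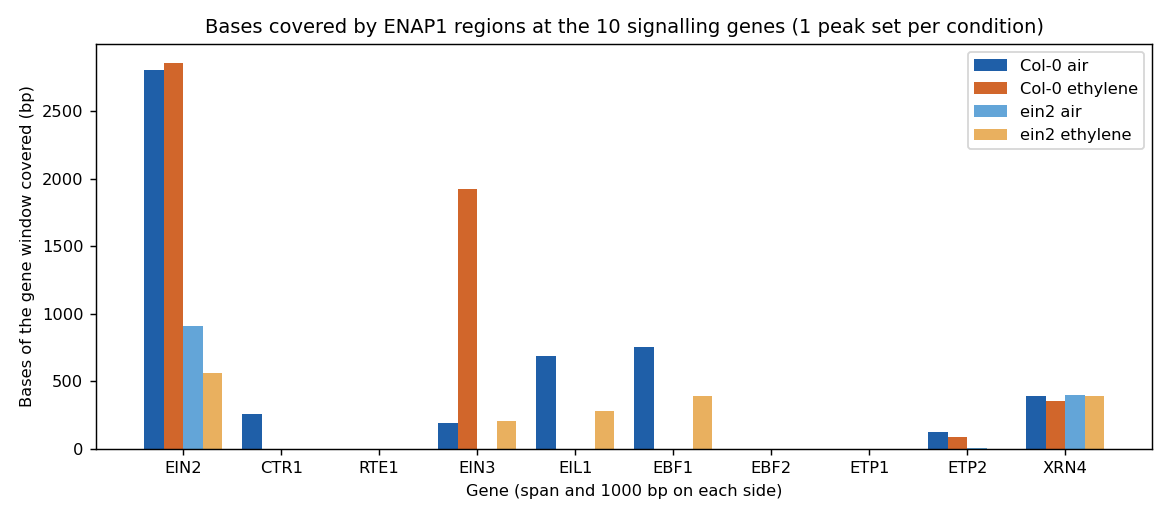
Bars give the bases (bp) of each gene window that regions covered in each of the 4 peak sets, with 1 set per condition and hence no error bars. EIN2 reached 2808 and 2857 bp in the Col-0 sets, EIN3 reached 1922 bp in Col-0 ethylene, XRN4 stayed between 355 and 401 bp in all sets, and RTE1, EBF2 and ETP1 were at 0.

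EIN2 (AT5G03280, chromosome 5) had the most bases of its window covered among the 10 genes in each of the 4 sets. Inside the gene itself this held in 3 sets, while in ein2 ethylene 77 bp of EIN2 were covered, against 253 bp of EIL1, 206 bp of XRN4 and 204 bp of EIN3. Its regions formed 2 stretches: one inside the gene toward its high-coordinate end, and one across that end. The gene table gives no strand, so ends are named here by coordinate. The stretch across the end was listed in every set, at 793265 to 794135 (air) and 793301 to 793968 (ethylene) in Col-0, and at 793289 to 793881 (air) and 793328 to 793886 (ethylene) in ein2. Its 4 summits lay within 17 bp of each other, from 793650 to 793667, 246 to 263 bp outside EIN2. The summits fell in the non-coding RNA gene AT5G03285, between EIN2 and IDH-V (AT5G03290), so this region cannot be assigned to EIN2 rather than to its neighbours.

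Inside EIN2, coverage differed between the sets in width. Col-0 air had regions at 791040 to 792596 (1557 bp) and at 792694 to 793073 (380 bp), and Col-0 ethylene had a single region of 2189 bp at 790953 to 793141 that contained both. In ein2 air the inner stretch was a region of 314 bp at 792739 to 793052, and in ein2 ethylene it had none. With the part of the end region that reaches into EIN2, 34.7% (air) and 38.4% (ethylene) of the gene was covered in Col-0. In ein2 it was 7.19% (air) and 1.29% (ethylene). That part was 140 (air) and 104 bp (ethylene) in Col-0, and 116 (air) and 77 bp (ethylene) in ein2. The 1.29% in ein2 ethylene thus came from the end region alone. The inner ein2 air region had a −log10 q of 11.1, just above the lowest of its set, and 99.5% of that set was higher in fold.

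The order of the inner and the end stretch was not the same in every set. The inner regions had folds of 3.91 and 3.48 in Col-0 air, below the 7.33 of the end region, and 2.23 in ein2 air, below 6.98. In Col-0 ethylene the inner region was the stronger, at 8.96 against 7.52, and 0.681% of that set was higher. The end region of ein2 ethylene had a fold of 2.88, with 37.9% of its set higher.

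EIN3 (AT3G20770, chromosome 3) encodes the main transcription factor of the pathway. Col-0 ethylene had a region of 1922 bp at 7260713 to 7262634, with its summit at 7262017 and a fold of 4.86, which covered 65.0% of the gene. Col-0 air had a region of 189 bp at 7263153 to 7263341, with its summit 130 bp inside the high-coordinate end and a fold of 3.66, and it did not overlap the Col-0 ethylene region. The ein2 ethylene region, 204 bp at 7262370 to 7262573, lay within the Col-0 ethylene region, with summits 436 bp apart, a fold of 2.41 and a −log10 q of 7.11. That value is below the lowest of each other set. No region was listed at EIN3 in ein2 air.

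**Figure D2:**
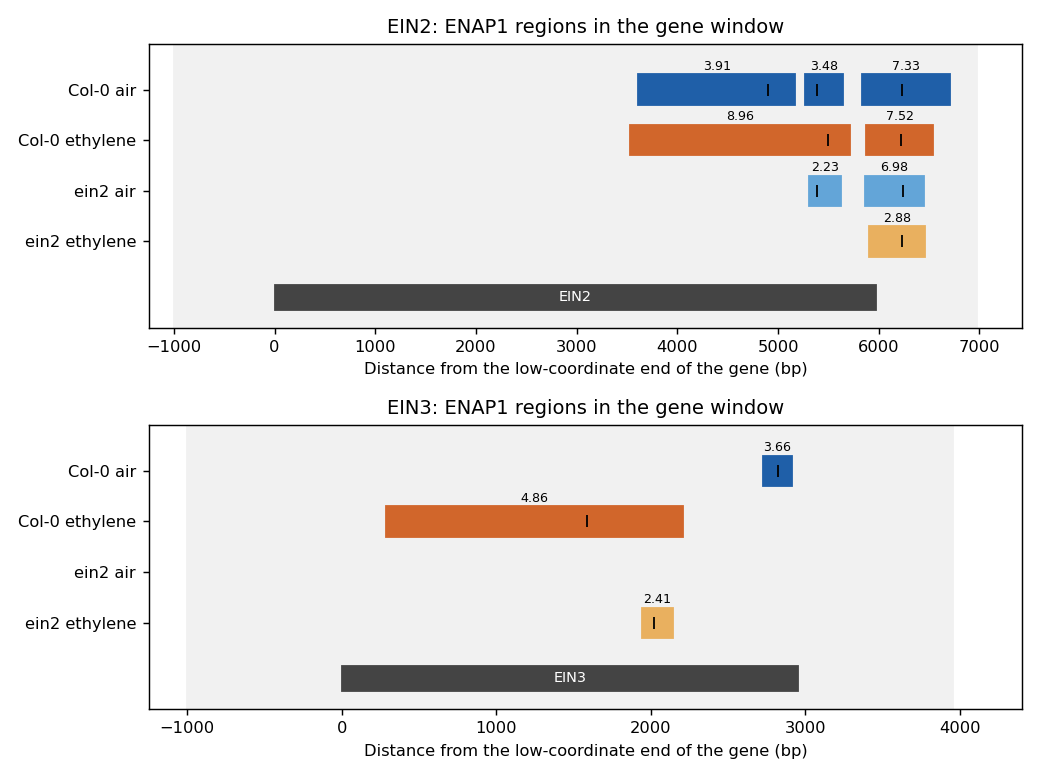
Boxes show regions along EIN2 (top) and EIN3 (bottom) by distance in bp from the low-coordinate end of the gene, 1 row per peak set, with the summit as a black tick and the authors' fold above each box; grey shading is the gene window. The inner EIN2 region spans 2189 bp in Col-0 ethylene and 314 bp in ein2 air, and the EIN3 region spans 1922 bp in Col-0 ethylene and 189 bp in Col-0 air.

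Regions as wide as these were rare in all sets. Over 1500 bp were 10 (air) and 45 (ethylene) of the Col-0 regions, and 2 (air) and 1 (ethylene) of the ein2 regions. Most of the 45 in Col-0 ethylene were weak, with a median fold of 1.77, and 14 of them had a fold of at least 3. Those 14 include the regions at EIN2, where 2 of the 45 had a higher fold, and at EIN3, where 10 did. Of the 10 in Col-0 air, 8 had a higher fold than the wide EIN2 region of that set. By bases covered inside the gene, 13 genes exceeded EIN2 and 20 exceeded EIN3 among the 5082 genes with any coverage in Col-0 ethylene. A count of bases favours long genes such as EIN2, which spans 5977 bp. By the share of the gene covered in Col-0 ethylene, 427 genes exceeded EIN2 and 223 exceeded EIN3. At least 1500 bp were covered in 44 genes in that set, and 22 of these had locus names starting with AT2G07, on chromosome 2. In Col-0 air it was 15 genes, and 9 genes, EIN2 among them and EIN3 not, met this in both Col-0 sets.

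**Figure D3:**
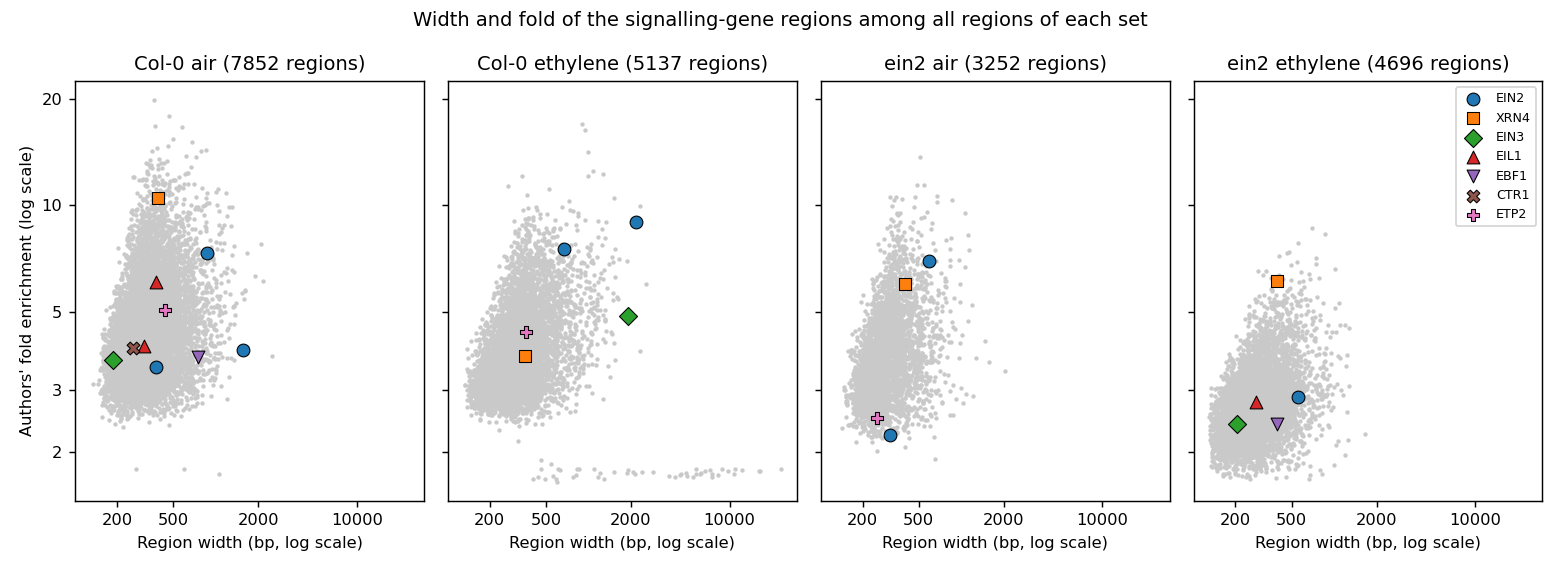
Each grey point is a region of the named peak set, by width in bp and the authors' fold (both axes logarithmic), and symbols mark the regions at the signalling genes. In Col-0 ethylene the EIN2 region of 2189 bp with a fold of 8.96 and the EIN3 region of 1922 bp with a fold of 4.86 lie to the right of the main cloud, while the XRN4 region of 355 bp lies within it.

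The genes most like EIN2 in bases covered over the 4 sets were HAM3 (AT4G00150), SIP1 (AT5G40390) and AT1G13360, with Euclidean distances of 1.05, 1.15 and 1.23 in log2(1 + bp). HAM3 had 1889 (air) and 2325 bp (ethylene) covered in Col-0 and 612 (air) and 855 bp (ethylene) in ein2, against 2808, 2857, 907 and 559 bp in the same order at EIN2. For EIN3, with 189, 1922, 0 and 204 bp, the nearest were GH9B8 (AT2G32990), AT2G42910 and CYP86A4 (AT1G01600), at distances of 1.44, 1.47 and 1.53. GH9B8 had 234, 743, 0 and 162 bp, less than EIN3 in Col-0 ethylene.

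EIL1 (AT2G27050, chromosome 2), the closest relative of EIN3 and partly redundant with it, had no region in Col-0 ethylene or ein2 air. In Col-0 air a region at 11545519 to 11545899 covered the low-coordinate end, with its summit 108 bp inside the gene and a fold of 6.08. Another, at 11548604 to 11548913, lay 311 bp beyond the other end with a fold of 4.00. The ein2 ethylene region at 11545629 to 11545908 overlapped the first, with summits 49 bp apart, a fold of 2.79 and a −log10 q of 11.3. That value is above the 10.9 that was the lowest in ein2 air. In Col-0 air the summits of both genes lay near a gene end, at 130 bp for EIN3 and at 108 and 496 bp for EIL1. In ein2 ethylene the distance to the nearest end was 931 bp for EIN3 and 59 bp for EIL1. The Col-0 ethylene summit of EIN3, with no EIL1 region in that set, lay 1588 and 1367 bp from the ends of EIN3. The more distant relatives EIL2, EIL3, EIL4 and EIL5 had no region in any set, 0 of 4, which was also the pattern of 60.3% of all genes.

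EBF1 (AT2G25490, chromosome 2) had the same combination of sets as EIL1. Its Col-0 air region spanned 753 bp, from 10847095 to 10847847, wider than all but 3.45% of that set, with a fold of 3.73. The ein2 ethylene region, 392 bp at 10846999 to 10847390, had a fold of 2.40 and a −log10 q of 7.55, below the lowest of the other 3 sets. The summits lay 137 and 193 bp outside the low-coordinate end, 56 bp apart, with no annotated gene at either summit. EBF2 (AT5G25350), which acts on the same transcription factors, had no region within 4000 bp in any set.

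CTR1 (AT5G03730, chromosome 5) had a region in Col-0 air alone, 258 bp at 979682 to 979939, with its summit 35 bp inside the high-coordinate end, a fold of 3.94 and a −log10 q of 20.7. In Col-0 ethylene the nearest region, 981634 to 981941, began 1785 bp beyond that end, outside the window. It overlapped the low-coordinate end of the histone deacetylase gene HD2C (AT5G03740), with its summit in no annotated gene. RTE1 (AT2G26070) had no region within 4000 bp in any set, and its relative RTH (AT3G51040) had none in its window.

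XRN4 (AT1G54490, chromosome 1) had the smallest spread of summits among the stretches found in more than 1 set, 4 bp. Its Col-0 regions spanned 20349929 to 20350321 (air) and 20349980 to 20350334 (ethylene), and its ein2 regions 20349938 to 20350338 (air) and 20349921 to 20350314 (ethylene). The summits, from 20350106 to 20350110, lay within 3 bp of the low-coordinate end of the gene in all 4 sets. The fold was 10.5 (air) and 3.75 (ethylene) in Col-0 and 5.98 (air) and 6.12 (ethylene) in ein2. In the same order, 1.35%, 50.1%, 7.53% and 0.490% of each set was higher. XRN4 was thus in the middle of its set in Col-0 ethylene and close to the top in the other 3. These ranks come from lists of different length and are no measure of change.

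The F-box genes ETP1 (AT3G18980) and ETP2 (AT3G18910), both on chromosome 3, had no region in the gene itself. The ETP2 entries, 6523935 to 6524371 in Col-0 air, 6523973 to 6524336 in Col-0 ethylene and 6524057 to 6524309 in ein2 air, began 874, 912 and 996 bp beyond its high-coordinate end. Their summits lay at 6524181, 6524183 and 6524196, inside the overlapping genes AT3G18930 and AT3G18915 and outside the ETP2 window. ETP2 is therefore a member with a region by the 1000 bp rule and not by the position of the summit. By summit, 6 (air) and 3 (ethylene) of the 10 genes had a region in Col-0, and 2 (air) and 5 (ethylene) in ein2. The share of all genes by summit was not counted, and the shares given for any overlap do not apply to these counts. At ETP1 the nearest regions began 3687 bp or more beyond the gene, with their summits in the neighbouring gene VRN1 (AT3G18990).

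**Figure D4:**
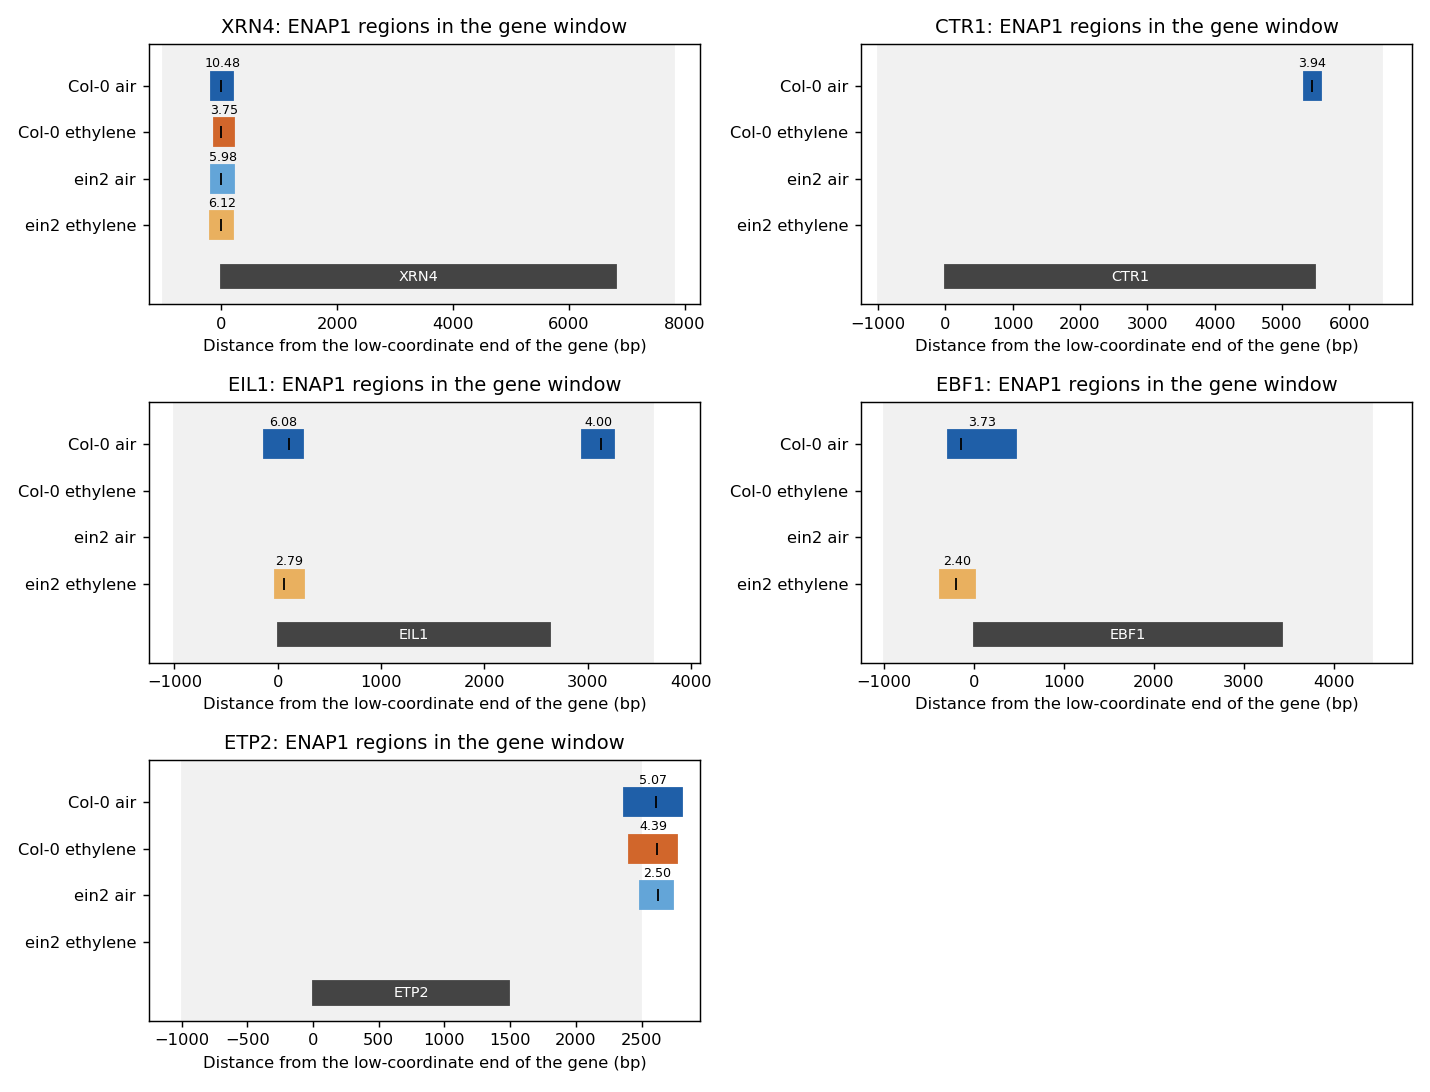
Boxes show regions along XRN4, CTR1, EIL1, EBF1 and ETP2 by distance in bp from the low-coordinate end of the gene, 1 row per peak set, with the summit as a black tick and the authors' fold above; grey shading is the gene window. The 4 XRN4 summits stand at the same end of the gene within 3 bp of it, and the 3 ETP2 summits stand outside the window.

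Ordered by the highest fold of each gene inside a set, Col-0 air ran from XRN4 (10.5) through EIN2 (7.33), EIL1 (6.08), ETP2 (5.07), CTR1 (3.94) and EBF1 (3.73) to EIN3 (3.66). Col-0 ethylene ran from EIN2 (8.96) through EIN3 (4.86) and ETP2 (4.39) to XRN4 (3.75). EIN3 was thus last of 7 in Col-0 air and second of 4 in Col-0 ethylene, and XRN4 was first in the one and last in the other. The EIN3 places rest on regions that did not overlap, and places from different sets are no measure of change. In ein2 air the order was EIN2 (6.98), XRN4 (5.98) and ETP2 (2.50). In ein2 ethylene it was XRN4 (6.12), EIN2 (2.88), EIL1 (2.79), EIN3 (2.41) and EBF1 (2.40). In Col-0 air, ein2 air and ein2 ethylene the EIN2 value is that of the end region, which cannot be assigned to EIN2 alone. In Col-0 ethylene it is that of the inner region, so the EIN2 places rest on different stretches. The inner regions reached 3.91 in Col-0 air, below CTR1, and 2.23 in ein2 air, below ETP2. The ETP2 values belong to regions with summits outside its window. With no replicate spread, neighbours in these orders cannot be separated.

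The first comparison, of the Col-0 sets, asks how ENAP1 occupancy differs once the hormone is present. EIN2, EIN3, ETP2 and XRN4 had a region in both, and EIL1, EBF1 and CTR1 in air alone. That pattern was held by 11.8% of all genes, and these 3 of the 7 listed in air compare with 33.3% of all 9747 genes listed there. None of the 10 had a region in ethylene alone, which 2.53% of all genes had. Of the 10 single regions in Col-0 air, 5 overlapped a Col-0 ethylene region, as did 58.2% of all 7852. At EIN3 the gene was listed in both sets through regions that did not overlap.

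The same comparison in ein2 asks what ethylene does where EIN2 is not functional. EIN2 and XRN4 had a region in both, and ETP2 in air alone, as did 2.55% of all genes (15.1% of those listed in ein2 air). EIN3, EIL1 and EBF1 were listed in ein2 ethylene alone, as were 8.09% of all genes. EIN3 and EBF1 were listed there at −log10 q values under the lowest of the ein2 air set, and at a minimum of 13.4 in every set none of these 3 genes remained. The air and ethylene ChIP libraries are numbered in different ways in the names of the peak sets, and if this marks separate handling, it cannot be told apart from the treatment.

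Between the lines in air, EIN2, ETP2 and XRN4 had a region in both, and EIN3, EIL1, EBF1 and CTR1 in Col-0 alone, as did 18.8% of all genes. These 4 of 7 compare with 53% of all genes listed in Col-0 air. None was listed in ein2 air alone, as were 0.204% of all genes. In ethylene, both lines had a region at EIN2, EIN3 and XRN4. ETP2 was listed in Col-0 alone (9.84% of all genes, and 37.5% of those listed in Col-0 ethylene), and EIL1 and EBF1 in ein2 alone (6.03%). The Col-0 and ein2 comparisons share peak sets and are not independent of each other.

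Genes around this core were read from lists chosen by function, also with earlier results of these data known. Among all genes, 12.8% had a region in all 4 sets, 3.05% in Col-0 air with ein2 ethylene, 6.98% in Col-0 air alone and 60.3% in none. Of the 5 receptor genes, ETR1 and ETR2 had a region in all 4 sets, as EIN2 and XRN4 did, and ERS1 had the combination of EIL1 and EBF1, in Col-0 air and ein2 ethylene. ERS2 was listed in Col-0 air alone, like CTR1, EIN4 in both air sets, and the copper transporter gene RAN1 in none. Of 8 genes known as targets of EIN3, EDF1, EDF3 and EDF4 were listed in Col-0 air (37.5%, against 35.5% of all genes). ERF1, EDF1 and EDF3 were listed in ein2 ethylene (37.5%, against 22.4%), the set with the lowest −log10 q minimum, 6.57. In Col-0 ethylene and ein2 air it was 0 of 8, against 26.2% and 16.9% of all genes. Among 4 core genes of the ubiquitin ligase that F-box proteins join, SKP1 and RBX1 were listed in all 4 sets and ASK2 and CUL1 in none. Among 5 RNA decay genes, the XRN4 relatives XRN2 and XRN3 and the decapping gene DCP2 were listed in all 4 sets, the decapping scaffold gene VCS in Col-0 air alone, and DCP1 in none.

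**Figure D5:**
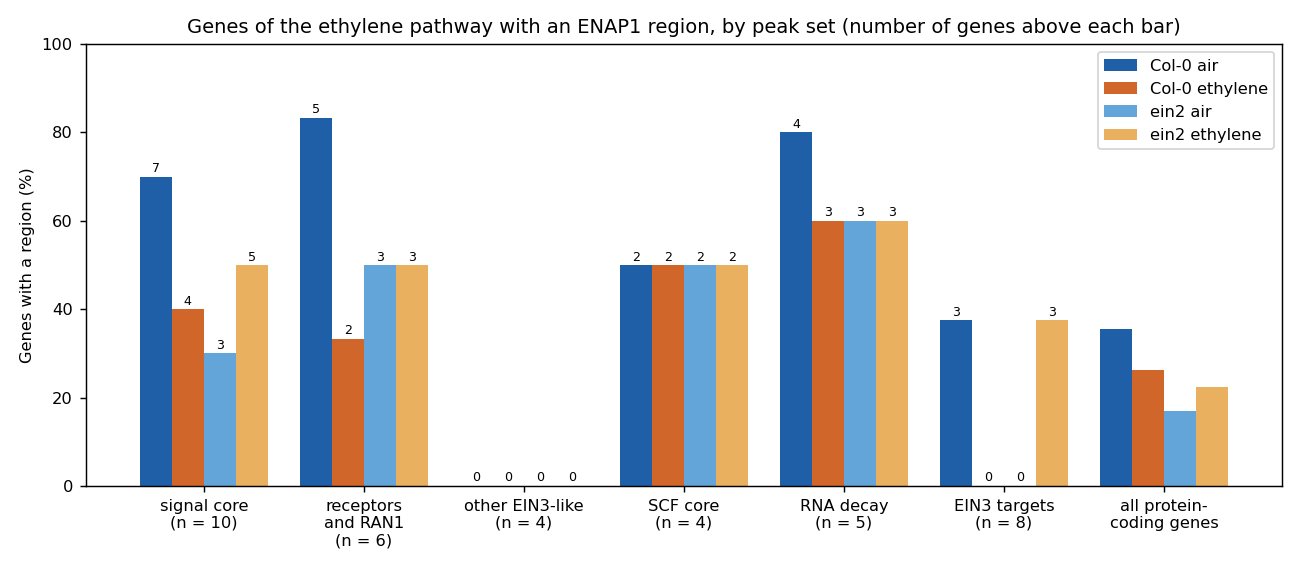
Bars give the percentage of genes with a region in each of the 4 peak sets, for the 10 signalling genes, 5 lists of related genes and all protein-coding genes, with the number of genes above each bar of a list. The signalling genes stand at 7, 4, 3 and 5 genes of 10, and all protein-coding genes at 35.5%, 26.2%, 16.9% and 22.4%.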

How the data were processed

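The members and lists were chosen with earlier results of these data known. Per the submitters' processing notes, BWA was the aligner, MACS2 2.1.0.20150603 the peak caller and TAIR10 the build. For filters, thresholds and pooling of replicates, the sources used here give nothing. The deposited peak lists give start, end, summit, fold enrichment (a ratio) and −log10 p and −log10 q, all computed by the authors. Of 6 lists, 4 are named in the sample labels and were used. They hold 39.7% to 45.9% of their own peak numbers, so a gene without a region may have had a peak in a longer list.

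Gene spans came from a RefSeq table of TAIR10.1, which gives no strand or exons, and its coordinates are not printed. As a check, 71.3% to 75.7% of summits lay within 300 bp of a gene edge, against at most 26.7% after a shift of 2000 bp. No entries touched, so none were merged. Overlap means at least 1 bp, and starts are 1-based. All 10 members are described. The genes most like EIN2 and EIN3 are the 3 nearest outside the lists by Euclidean distance in log2(1 + bp covered). The genes more widely covered than EIN2 and EIN3 were looked up after seeing the data. The overlap script was tested on simulated regions. A planned motif search was not run, since no sequence was used here. Python 3.11.15 with pandas 2.3.3 and numpy 2.4.6 was used.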

Additional observations from a re-analysis of the deposited data

Results flagged for a closer look

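At 3 genes the bases covered by regions differed between ethylene and air in opposite directions in the 2 lines. How many of all genes differ in this way was not counted. At EIL1 and EBF1 the opposite signs follow from being listed in Col-0 air and ein2 ethylene alone, as 3.05% of all genes were. At EIL1 the difference, ethylene minus air, was -691 bp in Col-0 and 280 bp in ein2. At EBF1 it was -753 bp in Col-0 and 392 bp in ein2. At EIN2 it was 49 bp in Col-0 and -348 bp in ein2. The Col-0 value is the net of both EIN2 stretches, which differed in opposite directions. The inner regions were 1557 and 380 bp in air and 2189 bp in ethylene. The end region, which cannot be assigned to EIN2 alone, was 871 bp in air and 668 bp in ethylene. The ein2 air coverage at EIN2 included the inner region of 314 bp, with a −log10 q of 11.1. Over the settings run on the widths, the EIN2 difference ran from 49 to 429 bp in Col-0 and from -34 to -593 bp in ein2. Each value comes from 1 peak set per condition, and the difference between the lines was not tested. With a common −log10 q minimum of 13.4, ein2 ethylene had no region at EIL1 or EBF1, and the ein2 difference at EIN2 was -34 bp.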

How the results depend on the processing

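Whether a single gene had a region in a single set was the same in 289 of 320 repeats under 8 other settings. Only the flank of 2000 bp could add a region, so under the other settings an absent call could not change. The share of unchanged calls is therefore no measure of how firm the absent calls are. XRN4 kept its call in all 4 sets under each of them, EBF2, ETP1 and RTE1 stayed without one, and 12 of the 31 differences were at ETP2. With no flank, 500 bp, or the summit in place of any overlap, ETP2 was lost. The numbers in ein2 air and not ethylene, and in Col-0 and not ein2 ethylene, became 0. With 2000 bp the latter was 2, as CTR1 was then listed in Col-0 ethylene through the region at HD2C.

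Strength settings remove regions at any gene and shares of all genes were not counted under them, so drops may not be specific to members. At the common −log10 q minimum of 13.4, ein2 ethylene had 2 members. None was then in 1 ein2 set and not the other, 2 were in Col-0 and not ein2 ethylene, and 0 the reverse. Member regions shared by Col-0 air and ein2 air numbered 2 in either direction (4 before). Of all regions, 33.9% in Col-0 air and 99.2% in ein2 air were then shared (40.6% and 98.4% before). At 3252 regions per set, Col-0 air had 4 members and ein2 ethylene 3. Then 1 was in Col-0 air and not ethylene (EIL1), 1 the reverse (EIN3) and 1 in ein2 ethylene and not air. In Col-0 and not ein2 there was 1 in air and 2 in ethylene, with 1 the reverse in ethylene. At a fold of at least 3, ein2 ethylene had 1 member, XRN4. Then 0 were in ein2 ethylene and not air, 3 in Col-0 and not ein2 ethylene, and 0 the reverse. With the 50% of regions of lowest p, Col-0 air had 4 members and ein2 ethylene 2. Then 1 was in Col-0 air and not ethylene, 1 the reverse, and 0 in either ein2 set and not the other. In Col-0 and not ein2 there were 2 in air and 2 in ethylene, and 0 the reverse. Requiring 50% of the shorter region to overlap changed no count of overlapping member regions.

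The EIN3 coverage of 1922 bp and the EIN2 coverage of 2857 bp in Col-0 ethylene were unchanged by the strength settings run on them, but 9 of 48 widths over all sets and settings moved by over 1.5 times. EIN3 went from 189 bp to 0 in Col-0 air with equal numbers of regions, and from 204 bp to 0 in ein2 ethylene with the common −log10 q minimum, equal numbers or a fold of at least 3. EIN2 went from 907 to 593 bp in ein2 air with the common minimum or the fold minimum, and from 559 bp to 0 in ein2 ethylene with the latter. With no flank these EIN2 widths were 430 and 77 bp. No paired analysis was possible because each condition has 1 peak set for both replicates, and leaving out a replicate was not possible for the same reason. Depth is unknown, so a missing region is not shown to be missing binding.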
